A study of Mus musculus with 3 samples.

Results

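The genes described here are 10 negative feedback regulators and direct targets of the Wnt/β-catenin pathway, chosen by name from the 27998 genes of the count tables: *Axin2*, *Nkd1*, *Notum*, *Wif1*, *Dkk2*, *Dkk3*, *Rnf43*, *Znrf3*, *Apcdd1* and *Sp5*. All 10 were found in the tables of all 3 libraries. The values were droplet-based single-cell RNA counts of sorted EpCAM+ cells of the mouse intestine, and each of the 3 genotypes gave 1 library. EpCAM, an adhesion molecule, marks the surface of the epithelium. The control, WT, was wild type and was taken 21 days after tamoxifen. *LApc* carried Lgr5-CreERT2 and Apc fl/fl and was taken at day 29. *LApcL* carried both of these and, in addition, Lef1 fl/fl, and was taken at day 21. All 3 mice were of the C57BL/6 strain and had, per the labels, 2 doses of 2 mg tamoxifen. Tamoxifen was given to Apc fl/fl mice at 7 to 8 weeks of age. Cre was driven from the *Lgr5* locus, so the floxed genes were targeted in intestinal stem cells and could be deleted only in these cells and their descendants. Each mutant library can therefore hold recombined and unrecombined cells side by side. With 1 mouse and 1 library a genotype, genotype cannot be told apart from mouse and library, nor, for *LApc*, from day. The reagent kit of each library is not given in the sources used here and could differ as well.

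Canonical Wnt signalling stabilizes β-catenin, which enters the nucleus and acts there with transcription factors of the Tcf/Lef family. Many of the genes it switches on encode brakes on the same pathway, and they are widely used as a readout of its activity in the intestinal crypt. *Apc* encodes a scaffold of the complex that degrades β-catenin, and *Lef1* encodes a Tcf/Lef factor. The brakes act at several levels. Notum is a secreted enzyme that removes the lipid from Wnt ligands, Wif1 binds Wnt ligands outside the cell, Dkk2 binds the co-receptor Lrp6, and Dkk3 is a divergent member of the Dickkopf family. Rnf43 and Znrf3 are membrane ubiquitin ligases that clear Frizzled receptors from the surface, and Apcdd1 is a membrane glycoprotein that binds Wnt and its co-receptor. Axin2 is a scaffold of the β-catenin destruction complex, Nkd1 binds Dishevelled, and Sp5 is a zinc finger transcription factor.

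RefSeq promoter windows (GRCm38.p6), matched by symbol, were taken for 6 of the 10 genes. No window matched *Notum*, *Dkk3* or *Znrf3*, and *Apcdd1* was not looked up. The 250 bases before the transcription start were searched for 4 forms of the Tcf/Lef core motif on both strands. The forms ending in A were CTTTGAA and CTTTGTA. The forms ending in T were CTTTGAT and CTTTGTT. The windows of 4 genes are shown because these genes differ most in where they were detected. *Sp5* and *Axin2* had UMIs in the normal crypt-like cells of WT, whereas *Nkd1* was low and *Wif1* absent there. Each window is on the plus strand and in lower case, with motif matches in capitals: *Sp5* at chr2:70474673-70474922, *Axin2* at chr11:108920099-108920348, *Nkd1* at chr8:88527383-88527632, which belongs to a start inside the annotated gene, and *Wif1* at chr10:121033754-121034003.
Sp5: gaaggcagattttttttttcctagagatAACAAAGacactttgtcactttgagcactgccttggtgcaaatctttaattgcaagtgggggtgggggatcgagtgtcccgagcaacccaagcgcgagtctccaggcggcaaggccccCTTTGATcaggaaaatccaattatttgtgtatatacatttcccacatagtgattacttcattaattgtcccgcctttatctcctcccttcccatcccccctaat
Axin2: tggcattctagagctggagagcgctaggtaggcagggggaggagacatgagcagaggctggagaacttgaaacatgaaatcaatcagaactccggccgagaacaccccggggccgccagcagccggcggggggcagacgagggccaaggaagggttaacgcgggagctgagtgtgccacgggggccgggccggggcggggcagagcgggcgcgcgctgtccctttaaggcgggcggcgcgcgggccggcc
Nkd1: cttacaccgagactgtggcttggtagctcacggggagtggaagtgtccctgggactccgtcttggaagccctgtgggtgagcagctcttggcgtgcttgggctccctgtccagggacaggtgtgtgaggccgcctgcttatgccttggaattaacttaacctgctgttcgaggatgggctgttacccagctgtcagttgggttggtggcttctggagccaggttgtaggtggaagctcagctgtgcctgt
Wif1: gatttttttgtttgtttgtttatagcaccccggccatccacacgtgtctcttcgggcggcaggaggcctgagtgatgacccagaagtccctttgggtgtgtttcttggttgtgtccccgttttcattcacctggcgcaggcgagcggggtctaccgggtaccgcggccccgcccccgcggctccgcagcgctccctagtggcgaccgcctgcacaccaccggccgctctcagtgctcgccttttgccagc
The *Sp5* window held 2 matches, AACAAAG, which is CTTTGTT on the other strand and begins 222 bases before the start, and CTTTGAT. The windows of *Axin2*, *Nkd1*, *Wif1*, *Dkk2* and *Rnf43* held none, which says only that these letters are not in these windows. Of 32851 promoter windows, 14.8% held at least 1 of the 4 forms.

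In GENCODE vM21 on GRCm38, *Notum* lies at chr11:120653788-120661175 on the minus strand, *Wif1* at chr10:121033960-121100650 on the plus strand, *Dkk2* at chr3:132085292-132180304 on the plus strand and *Dkk3* at chr7:112116017-112159057 on the minus strand. *Rnf43* lies at chr11:87662722-87735539 on the plus strand, *Znrf3* at chr11:5276324-5444847 on the minus strand and *Apcdd1* at chr18:62922231-62961179 on the plus strand. *Axin2* lies at chr11:108920349-108950783, *Nkd1* at chr8:88521354-88594884 and *Sp5* at chr2:70474923-70477729, all on the plus strand. All 10 are annotated as protein coding. *Nkd1* overlaps Gm45496 and *Rnf43* overlaps 1110028F11Rik on the same strand, so their counts could share reads with these genes.

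Of 11453 barcodes of WT, 13214 of *LApc* and 17388 of *LApcL*, the filters kept 10163, 9601 and 14401 cells. Median UMI counts of the kept cells were 9734, 6137 and 10143, so *LApc* was the shallowest library, and it also lost 17.7% of its barcodes to the limit on mitochondrial UMIs. Cell classes were rebuilt from marker genes, with 51 genes left out of the clustering features. These were the 10 genes, a wider list of 31 Wnt inhibitors and 10 partner genes used below for co-detection. Other genes named below, such as *Wfdc18* and *S100g*, were not among the 51. The partner genes *Lgr5*, *Ascl2*, *Prox1* and *Mki67* were still among the markers used to name Wnt/TA-like clusters. *Epcam* stood between 1444 and 1622 CPM (UMIs of a gene scaled to the group's total) in the 3 libraries, and the summed immune markers at 7.62 CPM in WT, 36.1 in *LApc* and 3.74 in *LApcL*. All 12 of the markers of Wnt-responsive and transit-amplifying crypt cells had UMIs in every Wnt/TA-like group. The libraries shared 214 to 318 barcode sequences by pair. *Apc* UMIs were not lower in the mutant libraries (16.6 CPM in WT, 23.6 in *LApc*, 32.5 in *LApcL*), and 3′ reads outside the deleted exons do not check the deletion.

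Wnt/TA-like cells were split into subclusters, and those that WT hardly entered were called adenoma-enriched. They held 5 WT cells, 1237 cells of *LApc* (12.9% of the kept cells) and 9219 cells of *LApcL* (64.0%). The remaining Wnt/TA-like cells, 3020, 2111 and 1206 in the same order, are called other Wnt/TA-like cells. Among these, subcluster 3 carried *Olfm4* and *Lgr5*, markers of crypt base stem cells. In adenoma-enriched cells, *Lef1* stood at 21.9 CPM in *LApc* and at 3.68 CPM in *LApcL*. All intervals below are exact 95% intervals that cover counting error only, and no test was possible with 1 library a group.

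In WT, some of the 10 genes had UMIs throughout the crypt-like cells and others were near absent from the epithelium. Other Wnt/TA-like cells held 66.5% of the 3738 *Axin2* UMIs, 57.8% of the 663 *Sp5* UMIs, 56.4% of the 1355 *Rnf43* UMIs and 51.6% of the 744 *Znrf3* UMIs. In the same library there were 23 UMIs of *Notum*, 15 of *Wif1*, 8 of *Dkk3*, 2 of *Dkk2* and 0 of *Apcdd1*. Paneth-like cells, the secretory cells of the crypt base, held 11 of the *Notum* UMIs and 11 of the *Wif1* UMIs, each from a different cell. These cells were the deepest class, with a median of 43506 UMIs. Scaled for depth, both genes stood there at 0.551 CPM. In the other named classes both stood between 0 CPM in tuft-like cells and 0.315 in enteroendocrine-like cells, the latter from 1 UMI each. At these low levels single UMIs were not read as expression, and the difference between classes was not tested.

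*Nkd1* had another pattern in WT. Of its 307 UMIs, 38.8% lay in Paneth-like cells, 28.3% in tuft-like cells and 23.1% in other Wnt/TA-like cells. By level, tuft-like cells, the chemosensory cells of the epithelium, stood highest at 36.2 CPM (29.0 to 44.6), Paneth-like cells at 5.96 (4.94 to 7.13) and other Wnt/TA-like cells at 2.07 (1.62 to 2.61). These intervals do not overlap. Enterocyte-like cells stood at 0.270 CPM with 8 UMIs.

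In the library labelled *LApc*, most UMIs of the secreted antagonists and of *Nkd1* were found in the 12.9% of cells that were adenoma-enriched. These cells held 95.5% of the *Dkk2* UMIs, 93.6% of *Notum*, 92.0% of *Nkd1*, 91.4% of *Wif1* and 89.5% of *Dkk3*. For the genes already present in the WT crypt the share was smaller, with 60.3% of *Sp5*, 53.3% of *Znrf3*, 49.3% of *Axin2* and 44% of *Rnf43*. In *LApcL*, where 64.0% of cells were adenoma-enriched, they held between 83.0% (*Znrf3*) and 94.2% (*Dkk2*) of the UMIs of these genes, apart from *Wif1* with 68.3%.

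**Figure D1:**
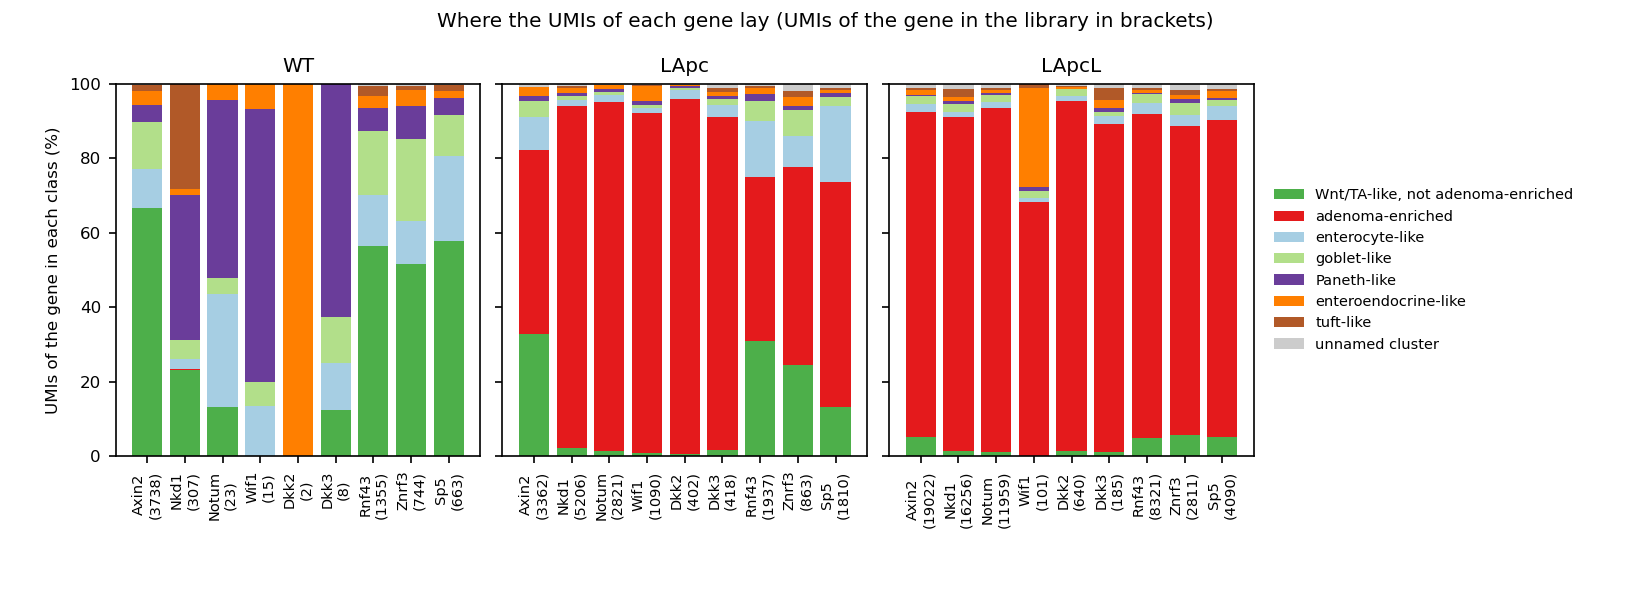
Share of each gene's UMIs, in percent, that lay in each cell class of a library, as stacked bars, without *Apcdd1*. Adenoma-enriched cells held 91.4% of the *Wif1* UMIs in *LApc* and 68.3% in *LApcL*, where 26.7% lay in enteroendocrine-like cells.

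Within *LApc*, adenoma-enriched cells were compared with the other Wnt/TA-like cells of the same mouse, a comparison in which library and day do not differ. A gene was counted as called when the difference was at least 2-fold, its interval did not include 0 on the log2 scale and the groups held at least 10 UMIs together. All 9 of the genes with enough UMIs were called higher in adenoma-enriched cells, against 22.2% of the 13497 genes tested. With TMM scaling, which moved every ratio of this comparison by -0.27, 7 of the 9 were called, since *Axin2* (0.96) and *Rnf43* (0.87) came under 2-fold. With subclusters not corrected between libraries, 3 were called, these being *Nkd1*, *Notum* and *Wif1*. At the original scaling and subclusters, the median log2 ratio was 6.13, beside 0.25 over all genes tested.

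Among the secreted antagonists, *Notum* stood at 269 CPM (259 to 279) in the adenoma-enriched and 2.68 in the other Wnt/TA-like cells of *LApc*, a log2 ratio of 6.65 (6.20 to 7.13). *Wif1* stood at 101.3 CPM (95.1 to 108) and 0.589, a log2 ratio of 7.43 (6.50 to 8.56). *Dkk2* stood at 39.1 and 0.131 CPM, a log2 ratio of 8.22 (6.36 to 11.3), with 384 UMIs against 2. *Dkk3* stood at 38.0 and 0.458 CPM, a log2 ratio of 6.38 (5.32 to 7.70). All 4 thus stood under 3 CPM in the other Wnt/TA-like cells. Some other classes of *LApc* stood higher, with *Wif1* at 21.4 CPM and *Notum* at 12.6 in enteroendocrine-like cells, and *Dkk3* at 12.1 CPM (3.94 to 28.3, from 5 UMIs) in tuft-like cells. Single cells held up to 31 UMIs of *Notum*, 25 of *Wif1* and 15 of *Dkk2*.

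The membrane regulators differed less. *Rnf43* stood at 86.7 CPM in the adenoma-enriched and 39.3 in the other Wnt/TA-like cells of *LApc*, a log2 ratio of 1.14 (0.99 to 1.30). *Znrf3* stood at 46.8 and 13.8 CPM, a log2 ratio of 1.76 (1.52 to 2.00). Both ligases were therefore higher in adenoma-enriched cells while other crypt-like cells kept a measurable level. *Apcdd1* had 4 UMIs in the kept cells of *LApc*, 12 in those of *LApcL* and 0 in WT, and its ratios had intervals on both sides of 0 in each comparison.

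Of the intracellular regulators, *Nkd1* stood at 487 CPM (473 to 501) and 6.94, a log2 ratio of 6.13 (5.86 to 6.43), and *Axin2* at 169 and 72.1, a log2 ratio of 1.23 (1.12 to 1.34). *Sp5* stood at 111 and 15.7 CPM, a log2 ratio of 2.82 (2.62 to 3.03). These genes, all used as Wnt readouts, thus differed widely in how far adenoma-enriched cells stood above the crypt-like cells of the same mouse.

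In *LApcL* the same comparison had smaller ratios. Intervals lay above 0 for 9 genes, a count for which no share over all genes was taken. Of the 10 genes tested, 5 were called, against 12.6% of all genes. The 5 were *Notum* (3.17, 2.92 to 3.43), *Dkk3* (3.10, 1.22 to 6.16), *Dkk2* (2.99, 2.00 to 4.20), *Nkd1* (2.84, 2.65 to 3.04) and *Wif1*, with 69 UMIs against 0, at least 2.42-fold higher with the 0 set to 3 counts. The log2 ratios of *Rnf43* (0.92), *Axin2* (0.84), *Sp5* (0.77) and *Znrf3* (0.60) were all under 1. The median was 1.88, beside 0.19 over all genes tested. Both medians cover only genes with UMIs in both groups, which leaves out *Wif1* and *Apcdd1*, with 0 UMIs in other Wnt/TA-like cells.

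Low levels outside adenoma-enriched cells were set beside genes that mark these cells. In *LApc*, other Wnt/TA-like cells carried *Notum* at 1.00% of its adenoma-enriched level, *Nkd1* at 1.42%, *Wif1* at 0.581% and *Dkk3* at 1.20%. The adenoma markers *Sox17*, *Msx1* and *Wfdc18* stood at 0.710%, 0.949% and 0.755%. In *LApcL*, *Nkd1* stood at 13.9%, *Notum* at 11.1%, *Dkk2* at 12.6% and *Dkk3* at 11.7%, and *Sox17*, *Msx1* and *Wfdc18* at 6.43%, 8.49% and 12.1%. *Wfdc18* itself was a weaker marker there, at 30.7 CPM in adenoma-enriched cells of *LApcL* against 1699 in those of *LApc*. Enterocyte-like cells carried *Notum* at 0.988% of the adenoma-enriched level in *LApc* and 13.4% in *LApcL*. In each library these genes and markers thus had a low level outside adenoma-enriched cells, in crypt-like and in enterocyte-like cells. *Nkd1* lay above the range of these 3 markers in the other Wnt/TA-like cells of both libraries. There *Lef1* stood at 3.29% in *LApc* and 42.3% in *LApcL*, and *Prox1* at 1.69% and 8.45%. *Nkd1* thus lay below *Lef1* in both libraries and below *Prox1* in *LApc*. In WT, with 5 adenoma-enriched cells, *Nkd1* stood at 2.07 CPM in other Wnt/TA-like cells against 0.270 in enterocyte-like cells. How much of these low levels came from RNA of other cells was not tested. *Axin2* (42.7% in *LApc*, 55.8% in *LApcL*), *Rnf43* (45.3% and 52.7%) and *Znrf3* (29.5% and 66.1%) stood well above that level in other Wnt/TA-like cells.

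Other Wnt/TA-like cells were then compared between WT and *LApc*, to ask whether crypt cells without the adenoma profile carried more of these transcripts. *Axin2* stood at 72.5 CPM in WT and 72.1 in *LApc*, a log2 ratio of -0.01 (-0.11 to 0.10). *Rnf43* was higher at 39.3 against 22.3 CPM, a log2 ratio of 0.82 (0.66 to 0.97), and *Sp5* at 15.7 against 11.2, a ratio of 0.49 (0.25 to 0.73). For *Znrf3* the ratio of 0.30 (0.05 to 0.55) had an interval that included 0 under another scaling. *Nkd1* and *Notum* had log2 ratios of 1.74 and 4.94, the latter from 41 UMIs against 3, and *Wif1* had 9 UMIs against 0. The *Nkd1* UMIs of *LApc* were not spread evenly, with 16.0 CPM in subcluster 3 and 3.85 in subcluster 1, and in WT the levels were 5.36 and 1.27. Of the 6 genes with at least 10 UMIs, 2 were called higher, these being *Nkd1* and *Notum*, against 5.11% of all genes.

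*LApcL* gave a like order in other Wnt/TA-like cells. Its log2 ratios to WT were 0.21 for *Axin2* (0.11 to 0.32), 0.64 for *Rnf43* (0.46 to 0.81), 0.32 for *Znrf3* (0.05 to 0.59) and 0.73 for *Sp5* (0.48 to 0.97). In the stem-cell-like subcluster 3, *Axin2* stood at 117 CPM in WT, 118 in *LApc* and 131 in *LApcL*, with overlapping intervals. *Rnf43* stood there at 38.5, 70.1 and 58.1 CPM, and its WT interval (34.1 to 43.3) did not reach those of *LApc* (61.9 to 79.0) and *LApcL* (50.5 to 66.6).

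The *LApcL* and *LApc* libraries were compared in adenoma-enriched cells, to ask how the transcripts of Wnt antagonists stood in cells with floxed *Lef1*. Intervals of the log2 ratio lay below 0 for 9 of the 10 genes, a count for which no share over all genes was taken. Of the 10 genes, 7 were called lower, against 15.1% of the 15177 genes tested. None of the 10 was called higher, against 1.34% of all genes. The median ratio was -1.62 over the 10 genes and -0.18 over all genes tested. Scaling by the TMM method moved every ratio of this comparison by 0.23, and all but *Axin2* and *Apcdd1* kept intervals below 0. It left 6 genes called lower, since *Znrf3* came to -0.91. With subclusters not corrected between libraries, 3 genes were called lower, these being *Wif1*, *Dkk2* and *Dkk3*.

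The secreted antagonists *Wif1*, *Dkk3* and *Dkk2* had the lowest ratios. *Notum*, also secreted, lay above the intracellular regulators *Nkd1* (-1.88) and *Sp5* (-1.81). *Wif1* stood at 0.627 CPM (0.488 to 0.793) in *LApcL* against 101.3 in *LApc*, a log2 ratio of -7.34 (-7.71 to -6.98). *Dkk3* had a ratio of -4.68 (-4.96 to -4.41), at 1.48 against 38.0 CPM. *Dkk2* had -2.83 (-3.02 to -2.65), at 5.48 against 39.1 CPM, and *Notum* -1.42 (-1.48 to -1.36), at 100.4 against 269 CPM. The *Wif1* UMIs of *LApcL* came from 48 of 9219 cells, and those of *LApc* from 325 of 1237.

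The other groups spread from no call to nearly 4-fold. *Nkd1* stood at 133 against 487 CPM, a log2 ratio of -1.88 (-1.92 to -1.83), and *Sp5* at 31.6 against 111, a ratio of -1.81 (-1.91 to -1.71). *Znrf3* had -1.14 (-1.29 to -0.996), at 21.2 against 46.8 CPM, and *Rnf43* -0.40 (-0.50 to -0.29), at 65.8 against 86.7. *Axin2* stood at 151 against 169 CPM, a ratio of -0.16 (-0.24 to -0.09) that became 0.07 with TMM scaling. *Axin2* and *Rnf43* thus lay nearer to equal levels than *Nkd1*, *Sp5* and *Znrf3*.

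The adenoma-enriched cells of the 2 libraries were not spread alike over their 5 subclusters. Subcluster 6 (*Wfdc18*, *Atp4a*, *Clu*, *Lcn2*) held 554 of the 1237 cells of *LApc* and 557 of the 9219 cells of *LApcL*, whereas subcluster 0 (*S100g*, *Sox17*) held 242 and 3583. Subcluster 2 (*Myl7*, *Lgals3*, *Anxa1*) held 142 and 2472, subcluster 4 with cell cycle genes 110 and 1561, and subcluster 5 with haemoglobin genes, *Mmp7* and *Vim* 189 and 1046. The 10 genes were therefore also compared within each subcluster.

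Subcluster 6 of *LApc* carried the secreted antagonists most. *Wif1* stood there at 207 CPM (193 to 222), beside 9.86 to 62.8 in the other 4, and *Dkk3* at 71.9 CPM (63.7 to 80.9), beside 3.95 to 35.5. *Notum* stood at 394 CPM in it and between 93.0 and 333 elsewhere, and *Nkd1* at 740 CPM and between 164 and 583. *Dkk2* departed from this order, since subcluster 2 (49.2 CPM, 38.6 to 61.9) and subcluster 6 (62.8 CPM, 55.2 to 71.3) had overlapping intervals above the other 3. *Rnf43* varied least, between 70.8 and 96.3 CPM, and *Axin2* lay between 112 and 214 CPM.

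In *LApcL*, subcluster 6 again stood highest for *Nkd1* (310 CPM, 296 to 326), *Notum* (205 CPM, 193 to 218), *Dkk3* (18.6 CPM, 15.1 to 22.6), *Wif1* (6.32 CPM, 4.38 to 8.83) and *Sp5* (74.7 CPM, 67.6 to 82.4). *Dkk2* stood instead at 16.6 CPM (14.1 to 19.4) in subcluster 5 and 11.6 (10.5 to 12.9) in subcluster 2, against 2.23 in subcluster 6. *Axin2* lay between 126 and 202 CPM, with the highest level in subcluster 5, as in *LApc*.

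Within single subclusters, *LApcL* stayed below *LApc* for the secreted antagonists. Intervals of the log2 ratio lay below 0 in 5 of 5 subclusters for *Wif1* (ratios -8.98 to -4.20), *Dkk3* (-5.11 to -1.95), *Nkd1* (-1.70 to -0.22) and *Sp5* (-1.87 to -0.61). They did so in 4 of 5 for *Notum* (-1.59 to -0.22), *Dkk2* (-4.82 to -0.21) and *Znrf3* (-1.11 to -0.37), and in 2 of 5 for *Rnf43*. *Axin2* lay below 0 in 2 and above 0 in 1, with ratios from -0.26 to 0.54. The ratios of *Nkd1* and *Notum* thus ranged from near 0 to about the pooled value, depending on the subcluster.

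Relative to adenoma-enriched cells, several of the genes stood higher in some differentiated cell classes of *LApc* than *Sox17*, *Msx1* and *Wfdc18* did. *Nkd1*, *Wif1* and *Sp5* are described here. In *LApcL*, *Wfdc18* stood at 118% of its adenoma-enriched level in enteroendocrine-like cells and 46.3% in goblet-like cells. *Nkd1* stood lower in these classes, at 67.9% and 29.5%. *Nkd1* in tuft-like cells stood at 36.2 CPM in 268 cells of WT, at 94.6 (67.3 to 129) in 85 cells of *LApc* and at 204 (183 to 227) in 311 cells of *LApcL*. After each cell was thinned to 3000 UMIs, 9.33%, 18.1% and 44.5% of them had a UMI. The log2 ratio of *LApcL* to WT was 2.50 (2.15 to 2.85), and that of *LApcL* to *LApc* 1.11 (0.63 to 1.63). The latter ratio was also above 0 in goblet-like (2.94), enterocyte-like (1.79), enteroendocrine-like (1.47), other Wnt/TA-like (1.41) and Paneth-like cells (0.72), and below 0 in adenoma-enriched cells. In tuft-like cells of *LApcL*, *Nkd1* stood at 154% of its adenoma-enriched level, and *Notum*, *Sox17* and *Msx1* at 27.5%, 23.4% and 20.4%. In those of *LApc*, *Nkd1* stood at 19.4% of its adenoma-enriched level, *Sox17* at 13.2% and *Msx1* at 1.95%. *Lef1*, *Prox1* and *Dkk3* stood in tuft-like cells at 159%, 155% and 238% in *LApcL*, and at 33.3%, 34.7% and 31.9% in *LApc*. Relative to the adenoma-enriched level, *Nkd1* in tuft-like cells of *LApcL* thus stood above *Notum*, *Sox17* and *Msx1*. It did not stand above *Lef1*, *Prox1* or *Dkk3*. *Nkd1* was present in tuft-like cells of WT.

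*Wif1* had UMIs in enteroendocrine-like cells, the hormone-secreting cells of the epithelium. It had 46 UMIs there in *LApc*, 21.4 CPM (15.7 to 28.5) in 32 of 553 cells, and 27 in *LApcL*, 12.5 CPM (8.26 to 18.2) in 21 of 361 cells, against 1 UMI in 324 cells of WT. In *LApcL* this was above the 0.627 CPM of adenoma-enriched cells, so the class with the highest *Wif1* level differed between the mutant libraries. The log2 ratio of *LApcL* to *LApc* in enteroendocrine-like cells was -0.77 (-1.51 to -0.06), beside -7.34 in adenoma-enriched cells. For comparison, enteroendocrine-like cells of *LApc* carried *Sox17* at 2.02% and *Notum* at 4.67% of their adenoma-enriched levels. *Wif1* stood at 21.1% and *Prox1* at 25.3%. The difference between the 2 ratios was not tested.

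*Sp5* also had UMIs in enterocyte-like cells, the absorptive cells, at 5.13 CPM in WT, 16.7 in *LApc* and 10.3 in *LApcL*. Its log2 ratio of *LApc* to WT was 1.70 (1.43 to 1.99) in these cells, beside 0.49 in other Wnt/TA-like cells, and that of *LApcL* to WT was 1.00 (0.67 to 1.33). In *LApc*, *Sp5* in enterocyte-like cells stood at 15.1% of its adenoma-enriched level, above the 0.646% to 1.30% of *Sox17*, *Msx1* and *Wfdc18*. This was not particular to *Sp5*. *Rnf43* stood there at nearly the same share, *Axin2* at 8.1%, *Znrf3* at 6.92% and the adenoma gene *S100g* at 7.15%. *Nkd1*, *Notum*, *Wif1* and *Dkk2* lay within the range of the markers. Of the 8 genes with enough UMIs, 6 were called higher in enterocyte-like cells of *LApc* than of WT, with *Rnf43* (1.06) among them. *Axin2* in the same cells stood at 13.2 CPM in WT and 13.7 in *LApc*.

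How many of the 10 genes single cells held was counted after thinning to 3000 UMIs, which left out 36 adenoma-enriched cells of *LApc* and 17 of *LApcL*. Of 1201 adenoma-enriched cells of *LApc*, 43.2% (40.4 to 46.1) held at least 3 genes, beside 12.6% (11.9 to 13.3) of 9202 such cells of *LApcL*. The distance between the libraries depended on the processing, with 75.1% and 65.8% before thinning and 16.8% and 11.3% with subclusters not corrected between libraries. The mean number was 2.44 and 1.28, and the most in a cell 8 and 7. In other Wnt/TA-like cells the share with at least 3 was 0.596% in WT, 1.08% in *LApc* and 1.42% in *LApcL*. Cells of *LApc* with at least 5 genes made up 14.4%, beside 0.598% in *LApcL*.

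The same count varied among subclusters. In *LApc* the share with at least 3 genes was 58.6% in subcluster 5, 58.2% in subcluster 6, 37.6% in subcluster 4, 18.4% in subcluster 2 and 14.8% in subcluster 0. In *LApcL* it was 29.8% in subcluster 6, 19.2% in subcluster 5, 12.5% in subcluster 4, 10.7% in subcluster 0 and 8.79% in subcluster 2. The intervals of the 2 libraries did not overlap in subclusters 2, 4, 5 and 6, and did so in subcluster 0 (10.6 to 20.02 against 9.66 to 11.7).

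**Figure D2:**
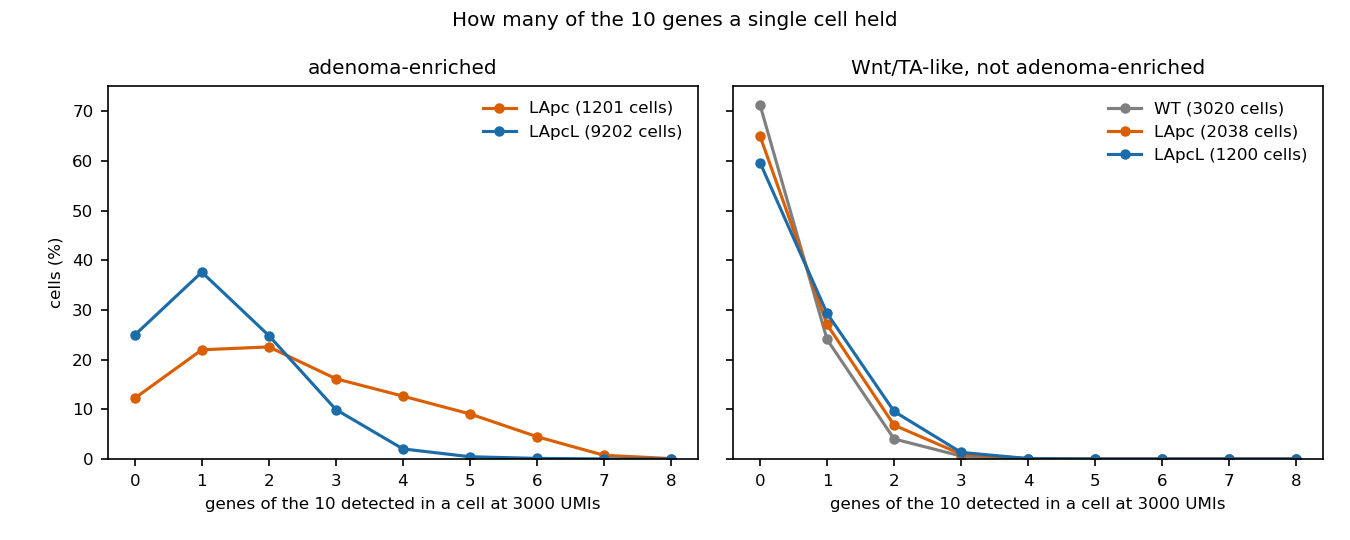
Percent of cells, thinned to 3000 UMIs, by how many of the 10 genes had at least 1 UMI, for other Wnt/TA-like and adenoma-enriched cells of each library. The adenoma-enriched cells of *LApc* lie furthest to the right, with 43.2% holding at least 3 genes.

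Gene by gene, thinned shares of adenoma-enriched cells with a UMI were 60.6% for *Nkd1* in *LApc* and 31.1% in *LApcL* (77.3% and 64.0% before thinning), and 43.5% and 25.2% for *Notum* (67.6% and 61.1%). For *Axin2* they were 39.1% and 35.9% (67.2% and 75.1%), and for *Sp5* 27.8% and 9.30% (46.2% and 28.6%). *Wif1* was found in 17.2% and 0.185% of cells (26.3% and 0.521%). Enterocyte-like cells gave thinned shares of 1.34% and 4.51% for *Nkd1*, 0.963% and 4.45% for *Notum*, 4.19% and 8.43% for *Axin2*, and 5.47% and 3.92% for *Sp5*. Each of these was below the share in adenoma-enriched cells of the same library. For *Wif1*, enterocyte-like cells gave 0.280% in *LApc* and 0 of 1709 cells in *LApcL*, which allows a share of up to 0.176%, near the 0.185% of adenoma-enriched cells there. Median UMI counts before thinning were 7580 and 11428 in adenoma-enriched cells, and 6205.5 and 8112.5 in enterocyte-like cells.

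Pairs of genes were described by the number of cells that held both, over the number given by the product of the 2 shares. In adenoma-enriched cells of *LApc*, 36 of the 45 pairs had at least 5 cells expected. The interval lay above 1 for 19 of them and below 1 for 0, and the median ratio was 1.30. The highest ratios joined secreted antagonists. *Wif1* and *Dkk3* were found together in 57 cells where 24.0 were expected, a ratio of 2.38 (1.80 to 3.08), *Wif1* and *Dkk2* in 26 where 14.1 were expected (1.84, 1.20 to 2.70), and *Notum* and *Wif1* in 152 where 89.97 were expected (1.69, 1.43 to 1.98). At the other end, *Wif1* with *Rnf43* was found in 51 cells where 49.98 were expected, and *Axin2* with *Rnf43* had a ratio of 1.05 (0.87 to 1.26). Ratios over all adenoma-enriched cells hold the differences between subclusters. The share of pairs above 1 was not computed for pairs drawn from all genes, in WT or in either mutant library.

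Within subcluster 6 of *LApc*, the interval of 7 of 36 pairs lay above 1. *Notum* with *Wif1* had a ratio of 1.39 (1.15 to 1.66), *Wif1* with *Dkk3* 1.53 (1.12 to 2.05), *Wif1* with *Dkk2* 1.63 (1.05 to 2.43) and *Wif1* with *Znrf3* 1.53 (1.09 to 2.08). The ratios of these pairs were lower within the subcluster than over all adenoma-enriched cells, apart from the last, which had the same value. The other subclusters of *LApc* held fewer cells. In subcluster 5, 1 of 27 described pairs, *Znrf3* with *Sp5*, lay above 1, and in subclusters 0, 2 and 4 none of 13, 7 and 16 did.

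In adenoma-enriched cells of *LApcL*, 12 of 28 described pairs lay above 1 and 0 below, with a median ratio of 1.14. *Dkk3* was found with *Sp5* (2.99, 1.67 to 4.93), *Notum* (2.79, 1.97 to 3.83) and *Nkd1* (2.32, 1.65 to 3.17) more often than the product of the shares. The most frequent such pair was *Nkd1* with *Notum*, in 894 cells where 723 were expected, a ratio of 1.24 (1.16 to 1.32). Its interval also lay above 1 within subclusters 0, 2, 5 and 6 of *LApcL* and within subcluster 6 of *LApc*. *Axin2* with *Dkk2* had a ratio of 1.605 (1.26 to 2.02) over all these cells and 1.42 (1.04 to 1.90) within subcluster 2.

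**Figure D3:**
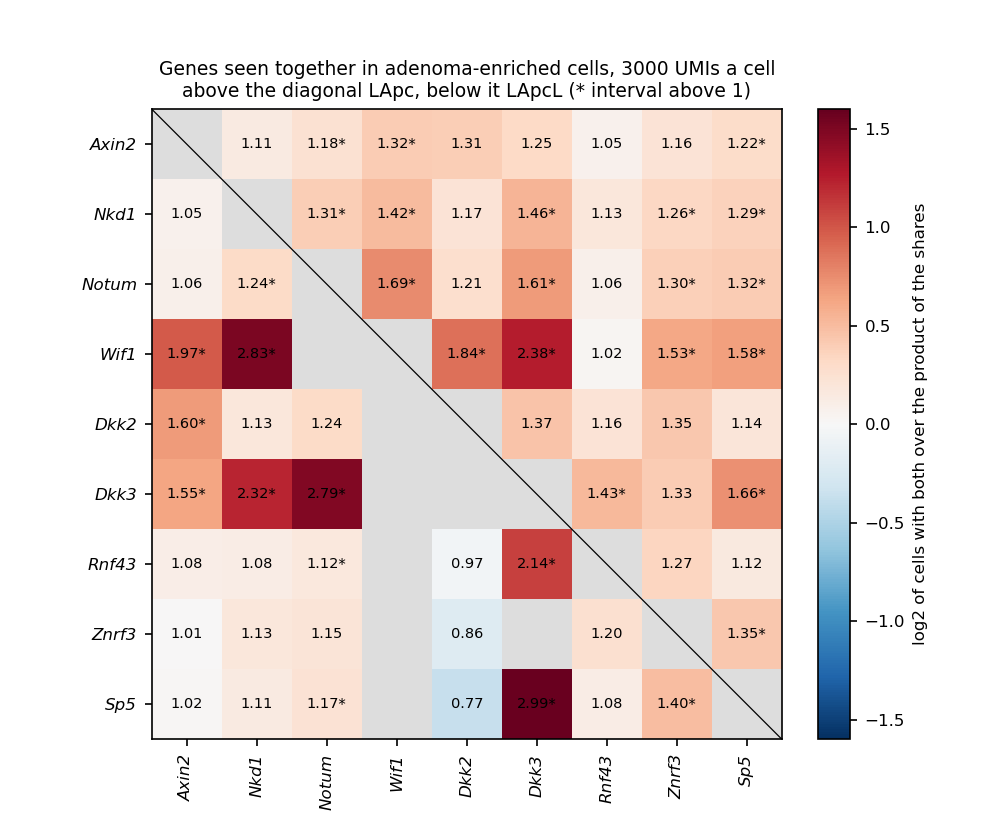
Ratio of cells holding both genes to the number given by the product of their shares, for each described pair, in the adenoma-enriched cells of each mutant library, thinned to 3000 UMIs. The ratio was highest for *Wif1* with *Dkk3* in *LApc* (2.38) and for *Dkk3* with *Sp5* in *LApcL* (2.99).

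In other Wnt/TA-like cells of WT, 5 pairs were described, and *Rnf43* with *Sp5* (2.22, 1.32 to 3.51), *Axin2* with *Sp5* (1.94, 1.42 to 2.60) and *Axin2* with *Rnf43* (1.57, 1.20 to 2.03) lay above 1. Within the stem-cell-like subcluster 3 of WT, 0 of 4 described pairs did so, with 1.31 (0.86 to 1.90) for *Axin2* with *Sp5*, whereas within subcluster 1 the ratio of this pair was 2.34 (1.36 to 3.75). Over all other Wnt/TA-like cells of WT, *Sp5* was found with the stem cell gene *Lgr5* at a ratio of 2.58 (1.78 to 3.62), *Axin2* at 1.74 (1.42 to 2.11), *Znrf3* at 1.78 (1.09 to 2.75) and *Rnf43* at 1.498 (1.018 to 2.13). All 4 genes were also found more often in cells with *Ascl2*, another stem cell gene, with ratios from 1.56 to 1.85. Ratios over all other Wnt/TA-like cells of WT hold the differences between subclusters. No share was taken over pairs drawn from all genes, or over all genes with *Lgr5* or *Ascl2*. Whether these ratios are particular to the 4 genes was therefore not tested. *Sp5* was found less often with the proliferation gene *Mki67*, at a ratio of 0.68 (0.45 to 0.98).

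In adenoma-enriched cells of *LApc*, the partner gene *Prox1*, a transcription factor, was found above the product of the shares with *Wif1* (1.68, 1.41 to 1.98), *Dkk3* (1.55, 1.24 to 1.92), *Sp5* (1.43, 1.23 to 1.65), *Notum* (1.39, 1.24 to 1.56), *Znrf3* (1.33, 1.06 to 1.64), *Nkd1* (1.31, 1.18 to 1.45) and *Axin2* (1.24, 1.09 to 1.41). *Sox17*, also a transcription factor, was found below it with *Dkk3* (0.51, 0.31 to 0.78), *Dkk2* (0.52, 0.27 to 0.90), *Wif1* (0.56, 0.39 to 0.79) and *Sp5* (0.78, 0.61 to 0.98). *Mki67* was likewise below 1 with *Dkk3* (0.56), *Znrf3* (0.56), *Wif1* (0.58) and *Sp5* (0.61). Over all these cells, *Wif1* and *Dkk3* thus lay in cells with *Prox1* and outside those with *Sox17* or *Mki67*, more often than their shares give. Ratios with partner genes, here and below, hold the differences between subclusters, and none is given within a subcluster. Over all libraries, subcluster 6 had the highest *Prox1* (248 CPM) and the lowest *Mki67* (23.8 CPM) of the adenoma-enriched subclusters. Subcluster 0 had the highest *Sox17* (467 CPM).

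In adenoma-enriched cells of *LApcL*, the *Prox1* ratio was again above 1 for *Dkk3* (5.19, 3.57 to 7.29), *Nkd1* (1.48, 1.36 to 1.62) and *Notum* (1.41, 1.27 to 1.56). It was also above 1 for *Rnf43* (1.25, 1.10 to 1.42), which is not among the genes given for *LApc*. For *Wif1*, *Sp5*, *Znrf3* and *Axin2*, above 1 in *LApc*, no ratio of *LApcL* is given here. *Dkk2* was found with *Sox17* in 15 cells where 63.3 were expected (0.24, 0.13 to 0.39), and with *Cd44* in 67 where 41.7 were expected (1.61, 1.24 to 2.04). *Nkd1* with *Sox17* had a ratio of 1.13 (1.08 to 1.19). In adenoma-enriched cells, *Prox1* itself stood at 224 CPM in *LApc* and 46.0 in *LApcL*, and *Sox17* at 184 and 313.

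In *LApc*, *Lef1* was found in the same adenoma-enriched cells as *Dkk2* (15 cells, 2.44, 1.37 to 4.03), *Sp5* (1.44, 1.007 to 1.99) and *Nkd1* (1.32, 1.03 to 1.66) more often than the product of the shares.

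Across 22 groups of cells (classes by library), likeness was measured as Pearson's r of log2(CPM + 1). The groups share libraries and depth, so r is a description. Among the 10 genes it was highest for *Axin2* with *Rnf43* (0.879), *Nkd1* with *Notum* (0.876) and *Rnf43* with *Sp5* (0.869), and 0.824 for *Wif1* with *Dkk3*, whereas *Axin2* with *Wif1* gave 0.269. Over all genes, *Axin2* was most like *Tns3* (0.949) and *Myc* (0.937), *Nkd1* most like *Anxa1* (0.926), and *Notum* most like *Ifitm1* (0.972), with 0.955 for *Sox17*. *Wif1* was most like *Spock2* (0.893), *Dkk2* like *Psapl1* (0.957), *Dkk3* like *Irx5* (0.937), *Rnf43* like *Tnfaip8l1* (0.944), *Znrf3* like *Arl4c* (0.919) and *Sp5* like *Rbms1* (0.924).

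A wider list of 31 further Wnt inhibitors, of which 12 are secreted, 6 membrane-bound and 13 intracellular, was counted in the same comparisons. Between *LApcL* and *LApc* in adenoma-enriched cells, 22 had at least 10 UMIs. Of these, 4 were called lower, against 15.1% of all genes, and 0 higher, against 1.34%. The median log2 ratio was -0.20, beside -0.18 over all genes, so the wider list as a whole lay near all genes. The 4 were, by the rule for naming genes, the secreted Frizzled-related genes *Sfrp2* (-3.20) and *Sfrp5* (-2.35), *Tpbg* (-1.79), a membrane inhibitor of Wnt signalling, and *Dact2* (-1.05), which encodes a Dishevelled-binding protein. Within *LApc*, 7 of 19 were called higher in adenoma-enriched than in other Wnt/TA-like cells, against 22.2% of all genes, and 1 lower, against 5.96%. The median was 0.54, beside 0.25 over all genes. In *LApcL*, 4 of 22 were higher, against 12.6%, and 2 lower, against 5.4%, and the median of 0.21 was near the 0.19 of all genes. *Sfrp5* was a crypt gene of WT, with 35.4 CPM in other Wnt/TA-like cells against 3.99 in *LApc*, a log2 ratio of -3.15 (-3.54 to -2.78).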

How the data were processed

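Sorted EpCAM+ cells of 1 WT, 1 *LApc* and 1 *LApcL* mouse were profiled on a 3′ droplet platform, and the authors quantified the reads with Cell Ranger 2.1.1 on an mm10 reference. The deposited values were unnormalized UMI counts (unique molecular identifiers, 1 per captured RNA molecule) per gene and barcode. The authors' cell annotation was not used here, so classes were rebuilt and may differ from the study's. The 10 genes and the lists were chosen with earlier results of these data known. All 10 are named with values. Of the wider list, genes called between *LApcL* and *LApc* are named, and *Sfrp5* in WT was named after its values were seen. One result on genes with a like pattern is not reported here.

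In each library, the 1% of barcodes at each end of genes detected and those with over 20% mitochondrial UMIs were removed. Scrublet (Scanpy 1.11.5) scored doublets. Its automatic threshold marked 0 barcodes of *LApc*, so cells were ranked by score and an expected doublet rate of 9.16%, 10.6% and 13.9% was applied, which removed 998, 1135 and 2319 cells of WT, *LApc* and *LApcL*. Kept UMIs were 121868358, 62522298 and 155288925. Cells were integrated and clustered with Seurat 5.3.0 (R 4.3.3, 956 features, 20 components, resolution 0.2). The 51 listed genes were left out of the features. Clusters were named from marker lists when at least 3 markers were raised 1.5-fold. Wnt/TA-like cells were corrected between libraries by mutual nearest neighbours and subclustered with leidenalg 0.10.2 (resolution 0.4). Subclusters with under 10% WT cells, at equal library weights, were called adenoma-enriched.

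Counts were summed by library and class and given as CPM, each with its exact Poisson interval. Log2 ratios carry exact conditional binomial intervals and shares Clopper-Pearson intervals, all at 95%, for counting error only. A count of 0 was set to 3 where a fold was given. Cells are not replicates and each genotype had 1 library, so no test was run and no p-value is given. Shares of cells were thinned to 3000 UMIs a cell. The computation of intervals and pair ratios was tested on simulated data. Alternatives were another scaling, filter, doublet rate, resolution, class rule, thinning depth, uncorrected subclusters and, chosen after seeing the data, leaving out subcluster 5 or 6.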

Additional observations from a re-analysis of the deposited data

Results flagged for a closer look

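For 4 genes the ratio of *LApcL* to *LApc* had an interval on opposite sides of 0 in adenoma-enriched and in other Wnt/TA-like cells. *Notum* had a log2 ratio of -1.42 in adenoma-enriched cells and 2.05 in other Wnt/TA-like cells. *Nkd1* had -1.88 and 1.41, and *Dkk2*, from 8 UMIs against 2 in the second comparison, had -2.83 and 2.4. *Axin2* had -0.16 and 0.22, the first of which had an interval that included 0 under both other scalings. The difference between the 2 classes of cells was not tested for any of them. In other Wnt/TA-like cells, *Nkd1*, *Notum* and *Dkk2* stood at 13.9%, 11.1% and 12.6% of their adenoma-enriched level in *LApcL*, beside the 6.43% to 12.1% of *Sox17*, *Msx1* and *Wfdc18*, and at 1.42%, 1.00% and 0.335% in *LApc*, beside the 0.710% to 0.949% of these markers. Adenoma-enriched cells made up 64.0% of *LApcL* and 12.9% of *LApc*. The part of this share in the ratios was not tested.

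Barcodes removed for over 20% mitochondrial UMIs also held UMIs of the 10 genes. The summed count was 21 in 62 barcodes of WT, 528 in 2342 barcodes of *LApc* and 432 in 413 barcodes of *LApcL*, or 44.8, 85.5 and 273 CPM.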

How the results depend on the processing

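Of 74 values under alternative settings, 56 stayed within 1.5 times the count or inside the interval of the share, and 18 did not. Leaving out the mutual-nearest-neighbour correction made nearly all mutant Wnt/TA-like cells adenoma-enriched. Then 1 gene was higher in *LApc* than in WT in other Wnt/TA-like cells, 3 were higher in adenoma-enriched than in other cells of *LApc* and 3 in *LApcL*, 16.8% and 11.3% of the cells of *LApc* and *LApcL* held at least 3 genes, and 35 pairs lay above 1 in *LApc*. *Axin2* (0.39) and *Rnf43* (0.12) then had log2 ratios of *LApcL* to *LApc* above 0. Thinning to 2000 UMIs gave 31.7% and 5.40% of cells with at least 3 genes and 6 pairs in *LApcL*, and no thinning gave 75.1% and 65.8% and 20 pairs. With the class set by the highest marker score, the share in *LApc* was 47.9%, and 6 pairs lay above 1 in *LApcL*. Without subcluster 6 the shares were 31.2% and 11.5%, and 4 pairs of *LApcL* lay above 1. Without subcluster 5 the share in *LApcL* was 11.7%. The causes were not tested. TMM scaling moved the log2 ratios of adenoma-enriched over other Wnt/TA-like cells by -0.27 in *LApc* and -0.16 in *LApcL*.

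No paired analysis was possible because each genotype had 1 library. The precision of *Apcdd1*, and of *Wif1*, *Dkk2* and *Dkk3* outside adenoma-enriched cells, was limited by their few UMIs, and differences between mice could not be measured.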

Other observations

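Enteroendocrine-like cells with a *Wif1* UMI were set beside those without, for genes chosen after their values were seen. In *LApcL*, 17 of 21 *Wif1*-positive cells (81.0%, 58.1 to 94.6) had a UMI of *Tph1*, the serotonin synthesis enzyme of enterochromaffin cells, against 41.2% (35.9 to 46.6) of the other 340. In *LApc* it was 24 of 32 (75%, 56.6 to 88.5) against 50.5% (46.1 to 54.9) of the other 521. *Gcg*, which encodes glucagon-like peptides, had a UMI in 0 of 21 and 1 of 32 *Wif1*-positive cells, against 14.1% and 14.6% of the others. *Nkd1* was found in 7 of the 32 *Wif1*-positive cells of *LApc* (21.9%, 9.28 to 40.0) against 3.07% of the others, and in 4 of the 21 of *LApcL* (19.0%, 5.45 to 41.9) against 29.1%. These cells were not thinned, and the part of depth or of doublets with adenoma cells in these shares was not tested.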
